A study of Mus musculus with 74 samples.

Results

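Gene deserts are long stretches of the genome without protein-coding genes, and the peaks described here are those ChIP-seq binding sites of KRAB zinc finger proteins (KRAB-ZFPs) of the mouse that lie inside them. A peak was taken as a desert peak when the midpoint of its 200 bp window lay more than 500 kb from the body of every protein-coding gene in the mm9 annotation gencode vM1. By this rule, which uses position only, 2772 of 53011 peaks were desert peaks, and 62 of 67 KRAB-ZFPs had at least 1. The member closest to the limit was a Zfp599 peak 500.055 kb from Hs6st1 on chromosome 1, and the closest peak left out was a Gm13235 peak 499.937 kb from Arrdc3 on chromosome 13.

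KRAB-ZFPs bind DNA through an array of zinc fingers and carry a KRAB domain, which recruits the corepressor KAP1 and, through it, enzymes that deposit the repressive mark H3K9me3. Many of them are known to bind transposable elements, sequences that have copied themselves to many places in the genome, so that 1 protein can have near-identical binding sites at many places. Gene deserts are known to be poor in G and C bases, and in the mouse genome L1 elements are concentrated in such AT-rich, gene-poor regions. Many deserts border genes of the developing nervous system and may hold their distant enhancers.

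The series measured binding by ChIP-seq of 1 overexpressed, epitope-tagged KRAB-ZFP per sample. Among the samples used here, F9 EC cells, a mouse embryonal carcinoma line, carried 18 KRAB-ZFPs with an N-3XFLAG tag (antibody F1804), 30 with an N-3XHA or C-3XHA tag (antibody ab9110) and 10 with a C-3XHA tag whose reads were aligned with Bowtie2. B6 ES cells carried 9 KRAB-ZFPs with a C-3XHA tag (HA clone 16B12). The proteins were expressed from stably integrating Sleeping beauty or lentiviral vectors, and puromycin-resistant clones were pooled, so every profile describes an overexpressed protein in a mixed population. For the FLAG profiles and the 30 HA profiles, peaks were called both against F9 input and against a control ChIP with the same antibody, for the Bowtie2 profiles against a Gm14296 control, and for the ES profiles against input alone. Each KRAB-ZFP was assayed once, so no value has a replicate error; intervals below are exact binomial 95% intervals and cover counting error only. The table held 52 to 5685 peaks per KRAB-ZFP and 1681 to 540220 tags within them, and the depth of the libraries is unknown here, so a missing peak does not show that a site was unbound.

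To show what desert peaks contain, the 24-base sequence (24-mer) found in the most desert peaks was taken for each of the 6 KRAB-ZFPs with the most desert peaks and for each KRAB-ZFP with more desert peaks than expected. These sequences are written 5′ to 3′ as they occur on the plus strand of mm9 at 1 of the desert peaks that carry them, and all bases are in capitals because all are shared.
Gm14406, chr3:16799245-16799268: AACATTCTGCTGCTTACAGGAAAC
Gm14419, chr14:85581624-85581647: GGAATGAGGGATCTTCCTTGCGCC
Gm21082, chr8:31134221-31134244: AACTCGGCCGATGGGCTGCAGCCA
Gm14412, chr10:37690805-37690828: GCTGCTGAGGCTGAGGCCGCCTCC
Gm8898, chr5:47333710-47333733: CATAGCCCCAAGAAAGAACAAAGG
Gm4631, chrX:60831772-60831795: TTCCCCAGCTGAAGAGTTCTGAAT
The Gm14406 sequence was held by 76.9% of its 684 desert peaks and by 71.1% of its peaks elsewhere, and it occurred 7201 times in the genome. The Gm21082 sequence was held by 189 of 199 desert peaks, against 77.1% of the other Gm21082 peaks, and occurred 3410 times. The Gm8898 sequence was held by 116 of 156 desert peaks, the Gm4631 sequence by 28 of 41, the Gm14412 sequence by 98 of 162 and the Gm14419 sequence by 196 of 357. For Gm14412 the share was 60.5% in deserts against 24.2% elsewhere. Each 24-mer was chosen for its count in desert peaks, which favours a higher share there, so these differences are descriptions and were not tested. The sixth KRAB-ZFP by number of desert peaks, Gm13251, was unlike the others: its most frequent 24-mer was in 3 of 131 desert peaks, so no sequence of it is shown. No 2 of the 24-mers shown shared a run of more than 6 bases on either strand.

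Some of these sequences were found under several proteins. The Gm4631 sequence was in 18 of 19 desert peaks of Gm14410, in 13 of 30 of Gm14399 and in 74 of 357 of Gm14419. The Gm21082 sequence was in 4 of 5 desert peaks of Gm13150, and the Gm8898 sequence in 5 of 36 of Gm14443. The Gm14406 sequence was in no desert peak of another KRAB-ZFP.

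Desert peaks were fewer than the size of the deserts would give. The 290 deserts cover 194.7 Mb of sequenced bases, which is 7.61% of the genome, and they held 5.23% of all peaks (95% interval 5.04 to 5.42). From the desert share of each peak's own chromosome, 3967 peaks were expected by random placement and 2772 were observed, a ratio of 0.70 (0.67 to 0.72). The density was 14.2 peaks per Mb in deserts and 21.3 per Mb elsewhere, and it was lower in deserts on all 20 chromosomes that have desert bases. Weighting each KRAB-ZFP equally gave a median ratio of 0.57, with quartiles of 0.22 and 0.85. Gm14406 alone contributed 684 desert peaks, 24.7% of the total, and without it the pooled ratio was 0.59.

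The KRAB-ZFPs differed widely in this ratio. In 34 of 67 KRAB-ZFPs (50.7%) the number of desert peaks was below the expected number at an adjusted p under 0.05, in 5 (7.46%) it was above, and in 28 it did not pass the test. The test is an exact two-sided test against the share of desert bases on the chromosomes of the protein's own peaks, adjusted by Benjamini-Hochberg over 67 KRAB-ZFPs. It asks where the peaks of 1 sample lie and treats them as independent; it does not compare replicates.

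**Figure D1:**
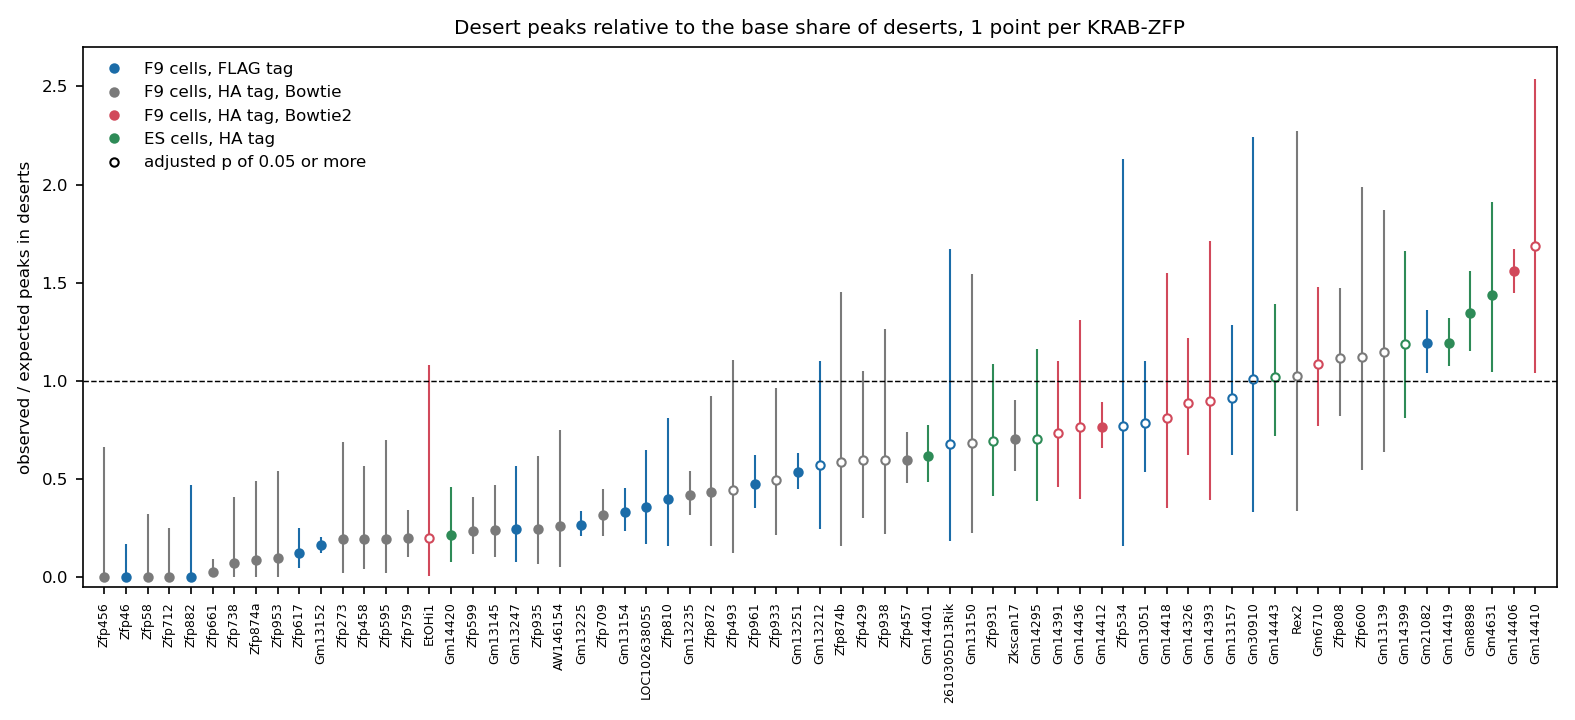
Observed over expected number of desert peaks for each of 67 KRAB-ZFPs, in order of the ratio, with exact binomial 95% intervals as vertical lines and the 4 combinations of cell line, tag and aligner in colour. Filled points passed the test at an adjusted p under 0.05; 34 of them lie below the dashed line at 1 and 5 above it.

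Gm14406 had the most desert peaks. It had 5685 peaks, of which 684 (95% interval of the share 11.2 to 12.9%) were in deserts where 439 were expected, a ratio of 1.56 (adjusted p = 8.97e-29 by the exact test). Its desert peaks were spread widely: each of the 65 deserts with a core of at least 1 Mb held at least 1, and in at least 55 of the 65 no KRAB-ZFP had more. Gm8898 had 156 desert peaks against 116 expected (ratio 1.35, adjusted exact p = 0.000632). Gm14419 had 357 against 298.9 (ratio 1.19, adjusted exact p = 0.00151), and Gm21082 had 199 against 167 (ratio 1.19, adjusted exact p = 0.0228). Gm4631 had 41 against 28.5 (ratio 1.44, adjusted exact p = 0.0437). The highest ratio of all, 1.69 for Gm14410 with 19 desert peaks against 11.3 expected, did not pass the test (adjusted exact p = 0.0563). It passed with a distance of 250 kb, with the desert share of the whole genome and with windows of matched GC content (6.28 expected, ratio 3.02, adjusted exact p = 0.000155). It did not pass beyond 1 Mb, beyond 500 kb from every annotated gene, with stricter peak thresholds or with peaks within 10 kb counted once. Nor did it pass when matched on chromosome and on the copy number of the window (14.5 expected, ratio 1.31, adjusted exact p = 0.357).

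These 5 KRAB-ZFPs bound mostly multi-copy sequence, here a window whose 24-mers have a median of at least 10 exact copies in mm9. Multi-copy windows made up 95.6% of the desert peaks of Gm14406, 99.5% of those of Gm21082, 98.1% of those of Gm8898, 92.7% of those of Gm4631 and 92.2% of those of Gm14419. The median copy number of the desert peaks was 7859 for Gm14406 and 1159 for Gm21082. When the expected share was matched on both chromosome and copy class of the window, Gm14406 still had more desert peaks than expected (684 against 589, ratio 1.16). The other 4 then did not pass the test, and Gm14419 and Gm21082 fell below 1, with ratios of 0.95 and 0.88. Their single-copy desert peaks, where a window's median copy number is under 2, were few: 12 for Gm14406, 21 for Gm14419, 1 for Gm21082, 3 for Gm8898 and 3 for Gm4631. Reads with several equally good positions were placed on 1 of them pseudo-randomly, so the position of a multi-copy peak is less certain than that of a single-copy peak.

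Many Gm21082 desert peaks lay near each other. Another Gm21082 peak lay within 10 kb of 73.4% of its 199 desert peaks and of 62.2% of its peaks elsewhere. Among desert peaks of Gm14406 and Gm14419 the share with such a neighbour was 6.29% and 4.20%. Among the 74 neighbouring pairs the median gap was 5440 bp (quartiles 4906 and 6748), and in 70 pairs both windows held the Gm21082 24-mer on the same strand, while in 0 they held it on opposite strands. Outside deserts the median gap of 632 such pairs was 6247 bp, with 571 on the same strand and 5 on opposite strands. Counting peaks within 10 kb once took Gm21082 out of the KRAB-ZFPs above expectation (ratio 1.10), and Gm4631 also lost its call (ratio 1.41).

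The 5 KRAB-ZFPs that had no desert peak had 5.43 to 21.5 expected. Zfp46 had 0 of 300 peaks where 21.5 were expected, Zfp712 0 of 197 where 14.6 were expected and Zfp58 0 of 148 where 11.3 were expected. Zfp882 had 0 of 100 where 7.67 were expected, and Zfp456 0 of 72 where 5.43 were expected. Adjusted p-values of the exact test ranged from 2.11e-09 for Zfp46 to 0.0128 for Zfp456, and the upper 95% limits of the desert share from 1.22% to 4.99%. Multi-copy windows were at most 4.67% of the peaks in each of these 5. Matched on GC content Zfp456 had 2.14 expected and lost its call (adjusted exact p = 0.338), and in single-copy windows matched on GC content all 5 lost theirs (adjusted exact p from 0.0545 for Zfp58 to 0.698 for Zfp456).

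The other KRAB-ZFPs with the lowest ratios had few desert peaks out of many. Zfp661 had 2 desert peaks among 1065 (0.188%) where 77.6 were expected (adjusted p = 1.12e-30 by the exact test), and both were single-copy. Zfp738, Zfp874a and Zfp953 had 1 each, where 13.4, 11.2 and 10.1 were expected. Matched on GC content 6.84, 5.91 and 6.61 were expected, and Zfp874a lost its call (adjusted exact p = 0.0642); in single-copy windows matched on GC content all 3 lost theirs. Zfp617 had 7 among 764 where 56.8 were expected. Gm13152, with 5189 peaks the second largest profile of the series, had 62 desert peaks where 380.7 were expected, a ratio of 0.16 (adjusted p = 1.96e-94 by the exact test). With windows of the same GC content as the expected share, 105.8 were expected for Gm13152 (ratio 0.59), and it stayed below.

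KRAB-ZFPs with many desert peaks were also among those below expectation. Gm14412 had 162, with 92.6% of them multi-copy, where 211.1 were expected (ratio 0.77, adjusted exact p = 0.000753). Gm13251 had 131 where 244.4 were expected (ratio 0.54, adjusted exact p = 2.19e-15), with 3.82% of them multi-copy.

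Distance and copy number varied together. Single-copy peaks were 1.68 times as frequent within 10 kb of a protein-coding gene as single-copy windows of the genome are, and 0.34 times as frequent both at 500 kb to 1 Mb and beyond 1 Mb. Multi-copy peaks, pooled over all proteins and copy numbers, stayed close to the multi-copy windows of the genome at every distance. The ratios ran from 0.93 inside genes to 1.10 at 10 to 100 kb, with 0.99 beyond 1 Mb. Of single-copy peaks 2.43% were in deserts, where 7.17% of single-copy windows lie, and of multi-copy peaks 10.0% were, where 10.4% of multi-copy windows lie. Peaks in windows of 2 to 9 copies lay between single-copy and multi-copy peaks, with 0.65 times the share of such windows in deserts. Single proteins were set against windows of every copy class. On that scale Gm14406 increased with distance, from a ratio of 0.50 inside genes to 1.65 beyond 1 Mb. Gm13152 went from 2.02 within 10 kb of genes to 0.13 beyond 1 Mb. Of Gm14406 peaks 19.5% lay inside genes and 3.39% beyond 1 Mb, against 23.1% and 2.87% of multi-copy windows.

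**Figure D2:**
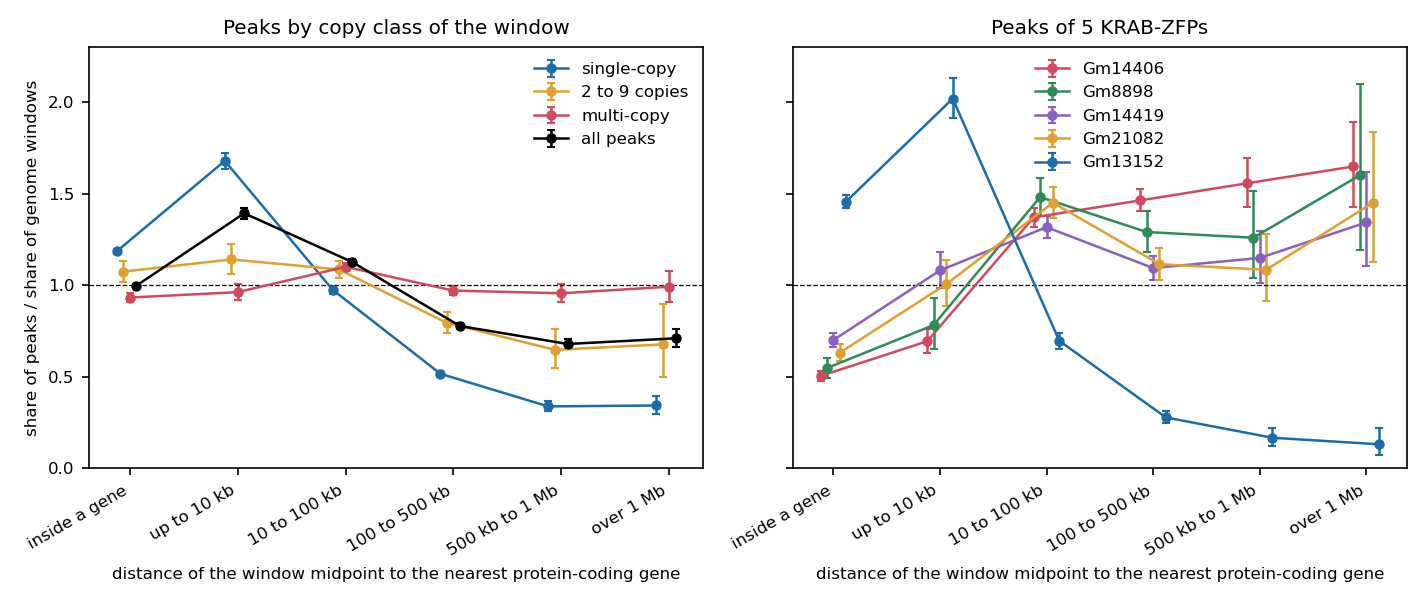
Share of peaks divided by the share of 200 bp genome windows of the same class, in 6 classes of distance to the nearest protein-coding gene, for peaks by copy class (left, against windows of that class) and for 5 KRAB-ZFPs (right, against all windows). Bars are exact binomial 95% intervals; single-copy peaks fall from 1.68 within 10 kb to 0.34 beyond 1 Mb, and multi-copy peaks stay between 0.93 and 1.10.

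GC content moved with these differences. Genome windows in deserts averaged 37.4% GC and windows elsewhere 42.1%, whereas desert peaks averaged 45.0% and other peaks 48.6%. When the expected share was taken from windows of the same GC content in place of the same chromosome, 2674 desert peaks were expected and the pooled ratio was 1.04. With that expected share, 24 KRAB-ZFPs were below and 10 above expectation; the 24 were all among the 34 of the main comparison, and Gm14412 changed side, with a ratio of 2.13. The ratios of the 5 KRAB-ZFPs above expectation were then 3.34 for Gm21082, 3.12 for Gm8898, 2.43 for Gm14419, 1.98 for Gm4631 and 1.48 for Gm14406. Single-copy peaks alone, matched on GC content, were still fewer than expected, with 752 against 1269 (ratio 0.59), with 12 KRAB-ZFPs below expectation and Gm13051 above it.

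Across the 63 KRAB-ZFPs with at least 5 expected desert peaks, those whose peaks outside deserts were more often multi-copy had higher desert ratios. Copy number was taken from peaks outside deserts, so that no desert peak entered it, though these peaks also set the expected number. The correlation of the multi-copy percentage with the log2 ratio (0.5 added to both counts) was r = 0.59 and rho = 0.72 (permutation p = 1e-05 for each, the smallest that 100000 resamples can give, and 2e-05 after adjustment over 2 measures). It was r = 0.57 without Gm21082 and Gm14406, the 2 farthest from the median. Within the combinations of cell line, tag and aligner rho was 0.62 among 16 FLAG profiles, 0.61 among 29 HA profiles aligned with Bowtie and 0.92 among the 9 ES profiles, but 0.22 among the 9 profiles aligned with Bowtie2, which did not pass the exact permutation test (adjusted p = 0.581). With mean GC content the correlation was weaker, at r = −0.38 and rho = −0.34 (adjusted permutation p = 0.00207 and 0.00721). Within the combinations rho with GC content was −0.58 among the 29 HA profiles aligned with Bowtie, which passed the permutation test (adjusted p = 0.00104). It was 0.05 among the FLAG profiles, 0.07 among the ES profiles and −0.45 among the Bowtie2 profiles, none of which passed. KRAB-ZFPs of 1 gene cluster are related in sequence, so these points are not fully independent.

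**Figure D3:**
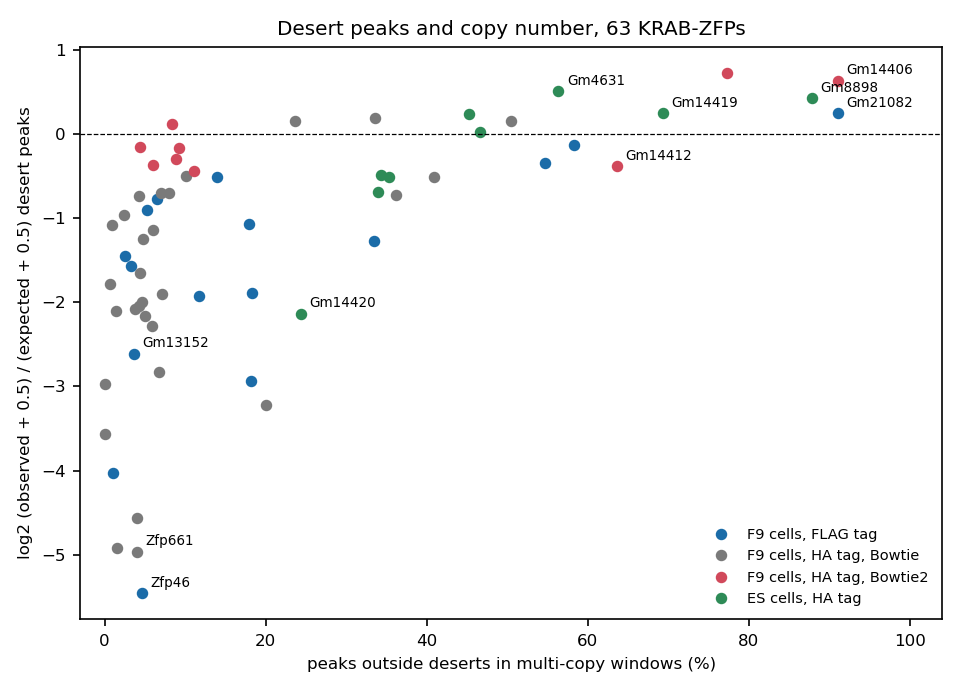
Log2 ratio of observed to expected desert peaks (0.5 added to each) against the percentage of the same KRAB-ZFP's peaks outside deserts that lie in multi-copy windows, 1 point for each of 63 KRAB-ZFPs, in colour by cell line, tag and aligner. The points rise from left to right (rho = 0.72), and KRAB-ZFPs under 20% multi-copy spread from −5.46 to 0.12.

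The combinations of cell line, tag and aligner also differed. The mean log2 ratio was −1.66 ± 1.498 (SD, n = 16) for FLAG profiles and −1.82 ± 1.43 (n = 29) for HA profiles in F9 cells, a difference that did not pass the permutation test (0.16, adjusted p = 0.728). It was −0.03 ± 0.44 (n = 9) for the F9 profiles aligned with Bowtie2, higher than the other HA profiles by 1.79 (adjusted permutation p = 0.00255). The ES profiles, at −0.26 ± 0.83 (n = 9), were higher than all F9 profiles, at −1.48 ± 1.47 (n = 54), by 1.21 (adjusted permutation p = 0.0288). Neither difference passed the test among single-copy peaks. The genes of all 9 KRAB-ZFPs profiled in ES cells and of all 9 with a gene found among the Bowtie2 profiles are on chromosome 2, against 0 of 15 and 1 of 30 in the other 2 combinations, so protein family, cell line, aligner and control cannot be told apart here.

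The same protein was next compared with itself, in the 34 KRAB-ZFPs with at least 10 desert peaks and 10 others. Desert peaks were lower in GC content in 30 of 34, by 3.05 ± 3.31 percentage points (mean and SD over KRAB-ZFPs; 43.7% against 46.8%, adjusted p = 7e-05 by a sign-flip permutation test over KRAB-ZFPs, adjusted over 7 measures). They were multi-copy more often in 24 of 34, by 9.30 ± 16.3 percentage points (41.9% against 32.6%, adjusted permutation p = 0.00345). Against only those other peaks that lie outside genes, this second difference was 4.90 percentage points and did not pass the test. Genome windows themselves were multi-copy in 17.7% of cases in deserts and 12.6% elsewhere. Whether the peaks differed by more than the windows was not tested. The largest shift in GC was that of Gm13152, whose desert peaks averaged 47.0% and whose other peaks averaged 62.7%. Gm14401 showed the pattern in copy number, with 79.2% multi-copy windows in deserts and 33.9% elsewhere.

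A difference in enrichment between desert peaks and the others did not pass the test. The median fold enrichment over local background, the authors' value, differed by 0.01 ± 0.04 on the log10 scale (adjusted permutation p = 0.328), with 12 KRAB-ZFPs higher and 18 lower in deserts. Tags per peak, the number of reads counted in the called region, were lower in 27 of 34 KRAB-ZFPs, by 0.03 ± 0.05 on the log10 scale (adjusted permutation p = 0.00049). The called width was lower in 26 of 34 by 0.02 ± 0.03 on the log10 scale (adjusted permutation p = 0.00345). The share of peaks at which another KRAB-ZFP was called was 16.1% in deserts and 17.7% elsewhere, and the share with a neighbour of the same protein within 10 kb was 6.38% and 5.72%; neither difference passed the test (adjusted permutation p = 0.328 and 0.675).

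**Figure D4:**
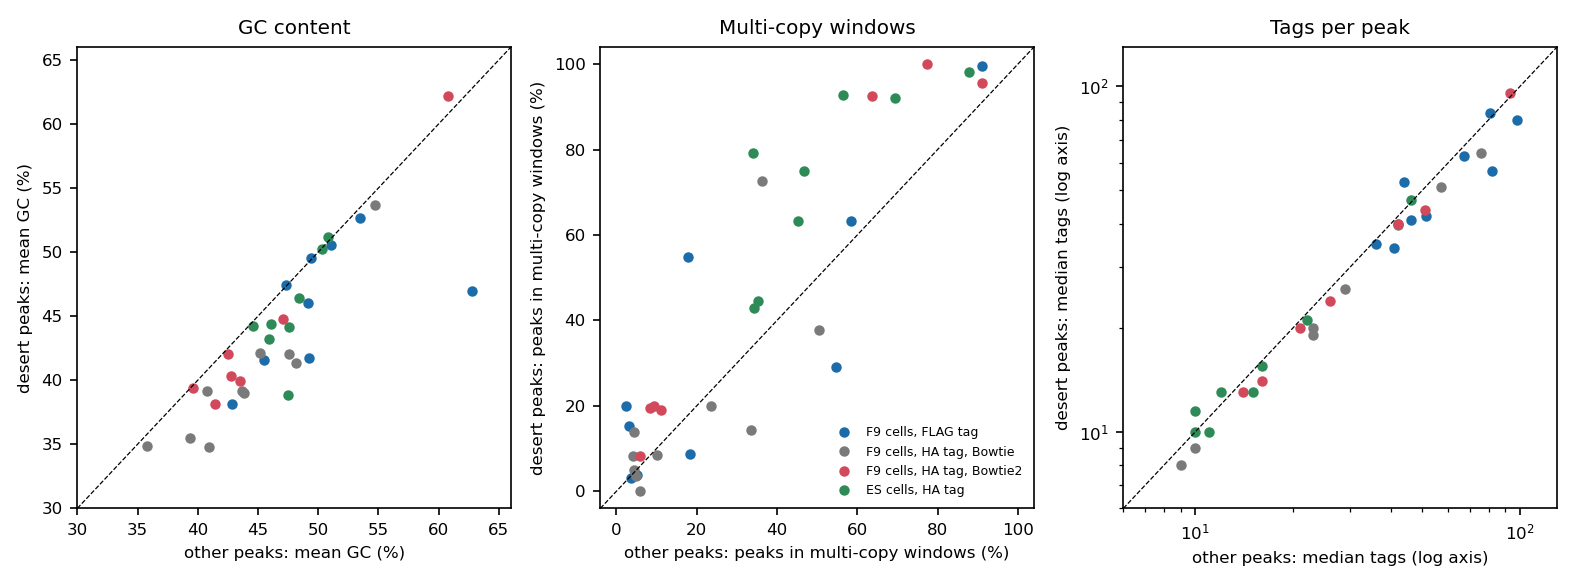
Desert peaks against the other peaks of the same KRAB-ZFP for mean GC content, percentage in multi-copy windows and median tags per peak (log axes), 1 point for each of 34 KRAB-ZFPs, with equality as the dashed line. In GC content 30 of 34 points lie below the line, in multi-copy percentage 24 lie above it, and in tags 27 lie below it.

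The strongest desert peaks were those of Gm13157, a protein with 30 desert peaks where 32.9 were expected. Its 5 strongest desert peaks were also the 5 with the largest fold enrichment among all desert peaks. Their folds ran from 183.9 at chr1:104872645-104872844 to 144.5 at chr14:89436182-89436381. All 5 windows held 1 identical run of 39 bases. The run was in these 5 of the 30 desert peaks and in 37 of 413 other Gm13157 peaks (8.96%). It was chosen because these 5 desert windows share it, so its desert count cannot be compared with its count elsewhere. The windows on chromosomes 1, 12 and 14 are shown with the run in capitals, the second on the minus strand of mm9.
Gm13157, chr1:104872645-104872844: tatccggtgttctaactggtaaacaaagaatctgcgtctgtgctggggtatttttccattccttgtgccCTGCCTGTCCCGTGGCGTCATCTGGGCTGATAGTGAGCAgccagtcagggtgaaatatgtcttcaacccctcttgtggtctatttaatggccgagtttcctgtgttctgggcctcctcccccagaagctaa
Gm13157, chr12:22860274-22860473: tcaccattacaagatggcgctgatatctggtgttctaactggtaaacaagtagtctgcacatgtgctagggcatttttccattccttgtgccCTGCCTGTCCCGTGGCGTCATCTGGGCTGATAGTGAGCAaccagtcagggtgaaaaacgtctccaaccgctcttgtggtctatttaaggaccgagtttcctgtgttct
Gm13157, chr14:89436182-89436381: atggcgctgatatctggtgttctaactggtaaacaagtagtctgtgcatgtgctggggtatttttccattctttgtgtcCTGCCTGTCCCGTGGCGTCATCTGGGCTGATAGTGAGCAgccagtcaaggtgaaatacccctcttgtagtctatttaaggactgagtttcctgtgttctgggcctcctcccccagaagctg

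The desert peaks lay a median of 767 kb from the nearest protein-coding gene, with quartiles of 606 and 1050 kb, and 775 of 2772 were more than 1 Mb away. The 5 farthest were a Gm14412 peak 2258 kb and a Gm14393 peak 2224 kb from Pik3c3, in the desert between Celf4 and Pik3c3, and 3 peaks 2155 to 2159 kb from Olfm4 on chromosome 14.

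The last 3 were of Gm21082, Gm14419 and Gm21082, with the Gm14419 peak between the others. The Gm21082 window at the higher coordinate and the Gm14419 window are shown on the plus strand, each with the 24-mer of its protein in capitals, the latter on the opposite strand from the form given above.
Gm21082, chr14:82581546-82581745: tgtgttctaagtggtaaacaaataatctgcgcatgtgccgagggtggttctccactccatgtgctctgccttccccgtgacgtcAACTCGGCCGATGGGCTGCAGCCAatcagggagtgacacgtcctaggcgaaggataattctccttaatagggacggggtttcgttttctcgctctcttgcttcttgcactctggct
Gm14419, chr14:82578319-82578518: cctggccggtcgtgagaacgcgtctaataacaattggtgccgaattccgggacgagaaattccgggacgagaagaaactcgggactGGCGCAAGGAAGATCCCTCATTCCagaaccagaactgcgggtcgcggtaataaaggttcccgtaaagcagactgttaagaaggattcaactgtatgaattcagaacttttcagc

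The 752 single-copy desert peaks were searched for shorter sequences. For each KRAB-ZFP with at least 20 of them, the 10-base sequence (10-mer) most in excess over single-copy genome windows was found in its single-copy peaks outside deserts, on either strand, and then counted in its desert peaks. For Gm13152 this was CCAGAGGGTC, held by 21 of 32 single-copy desert peaks (65.6%) but by 489 of 4438 single-copy peaks elsewhere, and by 0.0404% of single-copy desert windows of the genome. For Gm13154 it was CCATTGCTGC, held by 5 of 22 desert peaks (22.7%) and 15.2% of the others, and by 0.0471% of single-copy desert windows. For the other 9 KRAB-ZFPs the 10-mer was held by at most 4.45% of the peaks it was found in and by 0 or 1 of the desert peaks. These are descriptions of exact matches, with no test, and KRAB-ZFPs were singled out after their values were seen.

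Most desert sites were called for 1 KRAB-ZFP. Windows that overlapped by at least 25% were joined, which gave 2624 desert loci, of which 119 (4.54%) were called in at least 2 KRAB-ZFPs and 23 in at least 3; elsewhere 6.41% of 46143 loci were called in at least 2. The pairs with the most shared desert loci were Gm14419 with Gm4631 (17 loci), Gm14399 (14) and Gm14410 (10), all encoded on chromosome 2. The locus with the most proteins was chr5:133738969-133739407, 720 kb from Auts2, a neuronal gene. It was called for 8 KRAB-ZFPs, with fold enrichments from 11.2 for Zfp458 to 25.3 for Gm13251, and 7 of the 8 windows were single-copy; none of the 10-mers above occurred in it. The window of Gm13251 is shown with no part marked.
Gm13251, chr5:133739129-133739328: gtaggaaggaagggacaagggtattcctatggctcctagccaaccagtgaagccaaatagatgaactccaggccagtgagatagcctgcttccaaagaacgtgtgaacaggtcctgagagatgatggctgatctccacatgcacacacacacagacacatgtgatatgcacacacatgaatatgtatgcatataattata

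The next shared loci were called in fewer KRAB-ZFPs. The locus at chr16:80333582-80333791, 867 kb from Ncam2, was called for Gm13145, Gm13235, Gm13251 and Zfp457. The loci at chr4:16790819-16791155 (Gm13139, Gm13251 and Zfp808), chr3:12411936-12412248 (Gm14399, Gm14419 and Gm4631) and chr6:10136318-10136520 (Zfp534, Zfp617 and Zfp810) were called for 3 each. In the second of these the median copy number was 807, and in the last it was 1.

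Of the 290 deserts 22 have no sequenced bases, 239 of the other 268 held at least 1 peak, and the largest desert without a peak had a core of 0.225 Mb. The number of peaks followed the core length (rho = 0.90 over the 268 deserts with sequenced bases, a description). Among the 65 deserts of at least 1 Mb the density ranged from 2.66 to 28.6 peaks per Mb with a median of 13.7, and 3 to 26 KRAB-ZFPs had a peak in each. The density followed the percentage of multi-copy windows in the desert (rho = 0.41, 65 deserts, a description).

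The desert between Cntnap5b and Cdh20 (core chr1:102882520-106165105), genes of a neuronal surface protein and a cadherin, held the most peaks, 81 from 26 KRAB-ZFPs, with 20 of Gm14406 and 9 of Gm21082. The desert between the protocadherin gene Pcdh7 and G6pd2 (core chr5:59020591-61700081) held 63 peaks of 18 KRAB-ZFPs, 14 of them of Gm14406. The desert between Dsel and Cntnap5a (core chr1:114261487-117081332) held 52, that between Celf4 and Pik3c3 on chromosome 18 held 51 and that between Cdh2 and Dsc3 on chromosome 18 held 47. Gm14406 had the most peaks in each of these 5.

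Among the 65 deserts of at least 1 Mb, the densest were in part others. The desert between Cox7c and Gm8526 (core chr13:86686510-88118190) had 28.6 peaks per Mb and that between the neuronal adhesion gene Cntn5 and Phxr4 (core chr9:11404776-12734580) 26.3 per Mb, with Gm14419 leading in both with 8 peaks. Cntnap5b-Cdh20 had 24.7 per Mb, Pcdh7-G6pd2 23.5 per Mb and Tmprss15-Ncam2 (core chr16:79591343-80700941) 22.5 per Mb; in the last, Gm21082 led with 7 peaks. The lowest density among these 65 was in Igsf11-Lsamp on chromosome 16, with 4 peaks in 1.51 Mb.

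**Figure D5:**
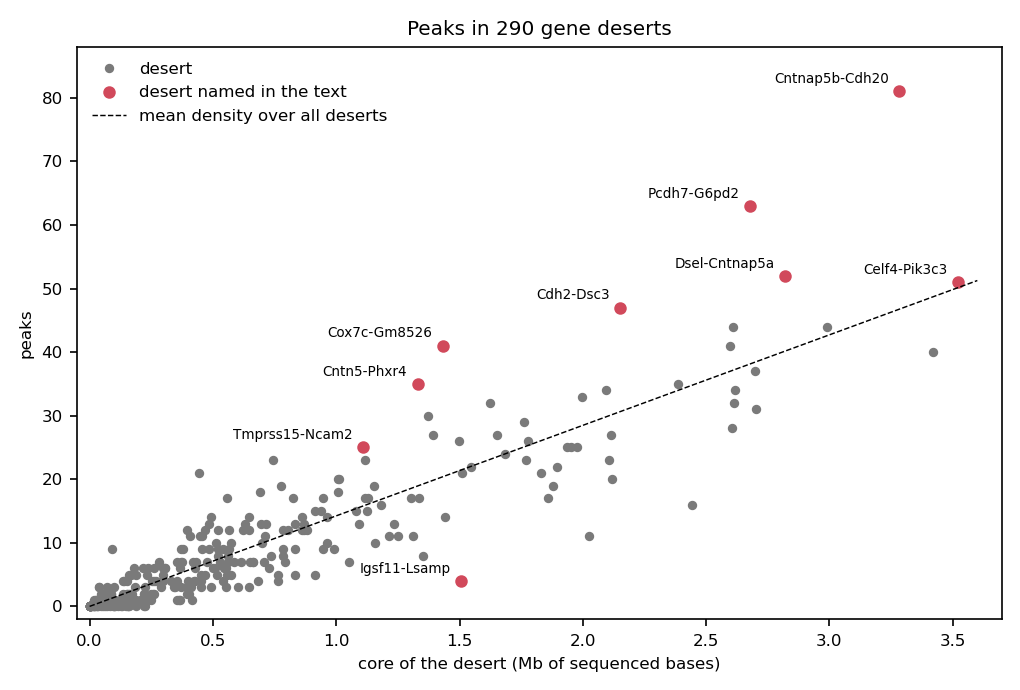
Number of peaks in each of 290 gene deserts against the length of its core in Mb of sequenced bases (0 for 22 of them), with the mean density of 14.2 peaks per Mb as the dashed line and the deserts named in the text in red. Cntnap5b-Cdh20 holds 81 peaks, and Igsf11-Lsamp holds 4 in a core of 1.51 Mb.

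Neighbouring gene families were taken from lists and compared with desert windows of the genome, every 10 kb. Cadherin genes, whose products join cells, were nearest to 4.91% of desert peaks and 4.49% of desert windows, and non-clustered protocadherin genes to 136 of 2772 desert peaks and 935 of 19473 desert windows. Genes of synaptic and axonal adhesion were nearest to 8.01% of desert peaks and 8.11% of desert windows, and developmental transcription factor genes to 1.73% and 2.04%. Within the lists, 54 desert peaks were nearest to Pcdh7 (1.95% of peaks, 1.36% of windows), 49 to Cntnap5b (1.77% and 0.909%) and 34 to Cdh20 (1.23% and 0.847%). Cntnap5b and Cdh20 border the same desert. Genes below their share of windows included Pcdh17 with 25 peaks (0.902% and 1.17%), Cdh9 with 21 (0.758% and 0.914%) and Lsamp with 2 (0.0722% and 0.385%). The deserts next to vomeronasal receptor genes have no sequenced bases and held 0 windows, so no peak could be counted there. The 9 desert peaks nearest to an olfactory receptor gene were all next to Olfr161, in the first sequenced bases of chromosome 16, and made up 0.325% of desert peaks against 0.0462% of desert windows (9 windows). The 9 came from 7 KRAB-ZFPs, with at most 2 from any 1 of them. This desert is 1 of 21 at a chromosome end, which together held 12 peaks in 0.137 Mb of sequenced bases. Most of the 21 have no sequenced bases. The desert next to Olfr161 held its 9 peaks in 0.0924 Mb, and that next to Gdi2 on chromosome 13 held 3 in 0.0373 Mb. The density over the 21 was 87.4 peaks per Mb, against 14.2 per Mb in deserts between 2 genes. It thus describes a few short stretches and not chromosome ends in general.

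Noncoding genes of the annotation took up little of the deserts. Of desert peaks 1.41% lay in a noncoding gene, against 1.95% of desert windows, and 0 lay in an exon of one, against 0.123% of windows. Annotated pseudogenes held 0.397% of desert peaks and 0.195% of windows, and processed transcripts 0.794% and 1.37%. These shares were not tested.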

How the data were processed

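The authors aligned reads to mm9 with Bowtie or Bowtie2, which put a read that fits several places equally well at a pseudo-randomly drawn place, and called peaks per sample with MACS 1.4.2 (p under 1e-10 or 1e-05, enrichment over 20 or 10 or, in ES cells, no enrichment threshold). The deposited table gives, for each 200 bp window, the tag count, a score (the scaled negative log10 of the p-value, in which larger is stronger), the fold enrichment (a ratio), a false discovery rate in percent (not used) and the called width and positions in base pairs. These are the authors' values. Of 53255 rows, 244 carried a name found in no label, and for 1 KRAB-ZFP in the labels no row had its name, so both were left out. Of 6 control samples no peaks were used.

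Genes, deserts and windows came from NCBIM37 (mm9) and gencode vM1. The desert rule, lists and the KRAB-ZFPs and peaks named (the most desert peaks, the most extreme ratios past the test, 0 where at least 3 were expected, the largest fold, the farthest and the most shared) were chosen with earlier results of these data known. Genes bordering named deserts, Gm13152, Gm14410, Gm14401, Gm13157, Gm13051, Zfp808 and EtOHi1 are named beside these for their values. Expected shares are the sequenced desert bases per chromosome; other windows were taken every 10 kb (255837), and copy numbers are exact 24-mer counts. Analyses ran in Python 3.11.15 with numpy 2.4.6 and scipy 1.17.1 and were tested on simulated data. Alternatives covered the distance, the expected share, the peak threshold, clustering and the minimum counts. No repeat annotation was used.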

Additional observations from a re-analysis of the deposited data

Results flagged for a closer look

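Among the 9 KRAB-ZFPs profiled in ES cells, Gm14420 stood apart from the other 8 in the log2 ratio of observed to expected desert peaks, at −2.13. It had 6 desert peaks among 383 where 28.0 were expected (ratio 0.21, adjusted p = 2.05e-06 by the exact test), whereas the next lowest ES profile, Gm14401, had a ratio of 0.62. Of the 6 desert peaks 66.7% were multi-copy, against 24.4% of its other peaks. The gap to the nearest profile was larger than Dixon's 95% limit for 9 values. Chance alone passes this limit in about 1 of 20 groups. The 10 profiles aligned with Bowtie2 were examined in the same way, with no such value among the 9 that could be used. The profile left out, EtOHi1, had 4.97 desert peaks expected, just under the minimum of 5. Its log2 ratio was −1.87, and that of the next lowest Bowtie2 profile was −0.44, so a low value there was not examined.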

How the results depend on the processing

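The pooled ratio stayed under 1 under all alternatives except matching on GC content, where it was 1.04. It was 0.35 among single-copy windows, 0.59 there with GC matched, 0.74 with p under 1e-10 and enrichment over 20, 0.64 with copy class matched, 0.57 with KRAB-ZFPs weighted equally and 0.59 without Gm14406. KRAB-ZFPs below expectation numbered 17 beyond 1 Mb, 10 beyond 500 kb from every annotated gene, 21 with the stricter peaks and 12 for single-copy windows with GC matched. KRAB-ZFPs above expectation numbered 10 with GC matched, 3 with peaks within 10 kb counted once, and 1 each beyond 500 kb from every annotated gene (Gm14406), in single-copy windows (Zfp808), in those with GC matched (Gm13051) and with copy class matched (Gm14406). In single-copy windows the ratios of Gm14406, Gm14419, Gm21082, Gm8898 and Gm4631 were 0.63, 0.31, 0.0946, 0.30 and 0.34, and with GC matched as well 0.675, 0.666, 0.233, 0.473 and 0.490. Gm14412 had a ratio of 2.13 with GC matched, and with copy class matched Gm14419 had 0.951 and Gm21082 0.876.

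Within proteins, the multi-copy difference lost its call beyond 1 Mb (10.6), with the stricter peaks (6.51) and against other peaks outside genes (4.90). Beyond 1 Mb the tag (−0.0439) and width (−0.0191) differences lost theirs and the fold difference was −0.0020. The share with another KRAB-ZFP called was lower in deserts by the test with the stricter peaks (−3.24), and the share with a neighbour was −1.04 with at least 20 desert peaks and −1.47 beyond 1 Mb. FLAG and HA profiles differed by −0.32 in single-copy windows. The Bowtie2 and ES differences did not pass with the stricter peaks (−2.18 and −1.36) or in single-copy windows (−1.14 and −0.47). The correlation with GC content was rho = 0.0471 for FLAG, 0.0667 for ES and −0.45 for Bowtie2 profiles, none past the test, and −0.58 for the other HA profiles, which passed, and that with copy number 0.22 for Bowtie2 profiles. The cause of these changes was not tested. The copy-class and single-copy GC matches and the value without Gm14406 were chosen after seeing the data. No paired analysis was possible because each KRAB-ZFP had 1 sample, and none could be left out as a replicate. Library depth is unknown, which limits what the absence of a peak shows.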
